A study of Rattus norvegicus with 6 samples.

Results

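The genes described here are 5 of the circadian clock (Per1, Per2, Arntl, Nr1d1 and Dbp) and 2 that respond to glucocorticoid hormones (Fkbp5 and Sgk1), 7 of the 32552 genes counted in rat striatum. They were chosen by Ensembl ID, and an ID was kept only where its chromosome was that of the named gene, which held for all 7. The counted files give IDs without names. The names came with the rule for choosing the genes, and the chromosome and strand of the RefSeq gene of the same symbol matched in 7 of 7 (Arntl is listed there as Bmal1). Poly(A)-selected RNA was sequenced from the striatum, where most input to the basal ganglia arrives, of male Sprague-Dawley rats. The 3 control libraries came from rats given intraperitoneal 0.9% NaCl, and the 3 Mn-exposed libraries from rats given MnCl2 at 25 mg/kg by the same route, in both cases over 15 days. They are called control 1, 2 and 4 and Mn-exposed 13, 14 and 17 after their labels. The sources used here do not give the rats' age, the time of day at which tissue was collected or the interval from the last injection. Nor do the labels state that each library is a separate animal, in which case p-values describe only how far these 6 libraries scatter.

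The circadian clock is a feedback loop of transcription that runs in most cells with a period of about a day. The activator ARNTL (also called BMAL1), with its partner CLOCK, switches on the Per genes, Nr1d1 and Dbp through E-box sequences. PER proteins then shut the activator off, and NR1D1 (REV-ERB alpha) represses Arntl, so that in a running clock Arntl transcripts peak opposite to those of Nr1d1 and Dbp. Adrenal glucocorticoids, which rise daily and with stress, act through the glucocorticoid receptor and induce Fkbp5 and Sgk1, and also Per1. Both sets of transcripts thus vary with hour and handling, neither of which is recorded for these libraries.

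Total counts ran from 21754379 to 32569760 per library. The members had between 299 and 5934 counts in a library. Mitochondrial DNA features took 13.9 to 16.6% of the counts in controls and 8.64 to 13.8% in Mn-exposed libraries, and leaving them out changed no member's sign or call. All 7 members passed the filter on low counts. Over the 15252 genes tested, edgeR's quasi-likelihood test called 0 genes (0%) at an adjusted p of 0.05 and 1139 (7.47%) at an unadjusted p under 0.05 (4.26% higher and 3.21% lower in Mn-exposed libraries), limma-voom called 0, and DESeq2 called 92 of the 15764 genes it adjusted (0.584%). The groups did not overlap in 1842 of the 15252 genes (12.1%), with 6.6% higher and 5.48% lower in Mn-exposed libraries. Other clock and glucocorticoid genes and the markers of striatal cell types could not be looked up by name and were not analysed here, so the labelled tissue was not checked. In whole tissue, fewer cells of a type and less RNA per cell cannot be told apart.

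Sequence before the start site is shown for Per2, Arntl and Nr1d1, whose windows hold letters through which clock proteins are known to act. The windows are RefSeq's on build GRCr8, 250 bases before to 50 after the start, written 5′ to 3′ on the gene's strand, with motif matches in capitals.
Per2, minus strand, chr9:99496944-99497243: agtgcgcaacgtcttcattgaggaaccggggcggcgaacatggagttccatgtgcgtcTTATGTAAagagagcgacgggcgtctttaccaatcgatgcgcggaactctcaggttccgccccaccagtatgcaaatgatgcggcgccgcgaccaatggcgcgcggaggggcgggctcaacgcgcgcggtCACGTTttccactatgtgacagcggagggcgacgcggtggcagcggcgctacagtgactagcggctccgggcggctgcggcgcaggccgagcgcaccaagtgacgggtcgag
Arntl, plus strand, chr1:176766078-176766377: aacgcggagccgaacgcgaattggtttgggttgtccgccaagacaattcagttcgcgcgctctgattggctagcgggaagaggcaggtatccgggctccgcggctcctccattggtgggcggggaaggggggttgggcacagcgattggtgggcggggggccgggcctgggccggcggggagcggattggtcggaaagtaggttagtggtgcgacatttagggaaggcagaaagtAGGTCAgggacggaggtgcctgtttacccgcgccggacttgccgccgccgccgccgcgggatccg
Nr1d1, minus strand, the second of 2 listed starts, chr10:84229405-84229704: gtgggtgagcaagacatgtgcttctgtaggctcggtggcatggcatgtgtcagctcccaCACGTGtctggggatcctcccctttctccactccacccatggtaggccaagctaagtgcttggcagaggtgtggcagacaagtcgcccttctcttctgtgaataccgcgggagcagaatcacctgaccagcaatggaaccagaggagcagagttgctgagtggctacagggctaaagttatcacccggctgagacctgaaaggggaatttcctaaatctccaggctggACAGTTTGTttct
In Per2 the capitals mark TTATGTAA, a D-box (the element bound by DBP), which begins 192 bases before the start, and CACGTT, an E-box variant, 62 bases before it. In Arntl they mark AGGTCA, the half-site bound by NR1D1 and many other nuclear receptors, 15 bases before the start. In Nr1d1 they mark the E-box CACGTG, 191 bases before the start, and ACAGTTTGT, a match to the glucocorticoid receptor core ACANNNTGT, after it. Both strands of all 33469 windows of this length were searched. The E-box CACGTG was present in 6.42% of them and its variant CACGTT in 4.83%. The D-box TTATGTAA was present in 0.893% and its variant TTACGTAA in 0.12%. The half-site AGGTCA was present in 16.2% and the receptor core ACANNNTGT in 6.86%. All 7 members had a window, 10 in all, and 6 of the 10, those of Per1, Dbp, Fkbp5 and Sgk1, held none of these letters. The other Nr1d1 window held CACGTT on the opposite strand. A match is a description of the letters and not a measured binding site.

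Comparing Mn-exposed with control striatum, 3 members had a positive and 4 a negative estimated difference, where 52.6% of all genes had a positive one, and 0 of 7 passed the test over all genes. The lowest 2 unadjusted p-values belonged to Sgk1 and Per1, both lower in Mn-exposed libraries. These 2 of 7 members had an unadjusted edgeR p under 0.05. Of all genes, 7.47% did so in either direction and 3.21% in the lower direction alone. With 1 library left out, that count of members ran from 0 (control 4 or Mn-exposed 17) to 3 (control 1). The median log2 fold change of the 7 was -0.17, against 0.02 over all genes tested. The 5 clock genes had a median of 0.01 and the 2 glucocorticoid genes one of -0.49. Levels below are CPM, counts scaled by library total and TMM factor so that libraries can be compared, and fold changes are on the log2 scale, Mn-exposed relative to control, from edgeR.

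**Figure D1:**
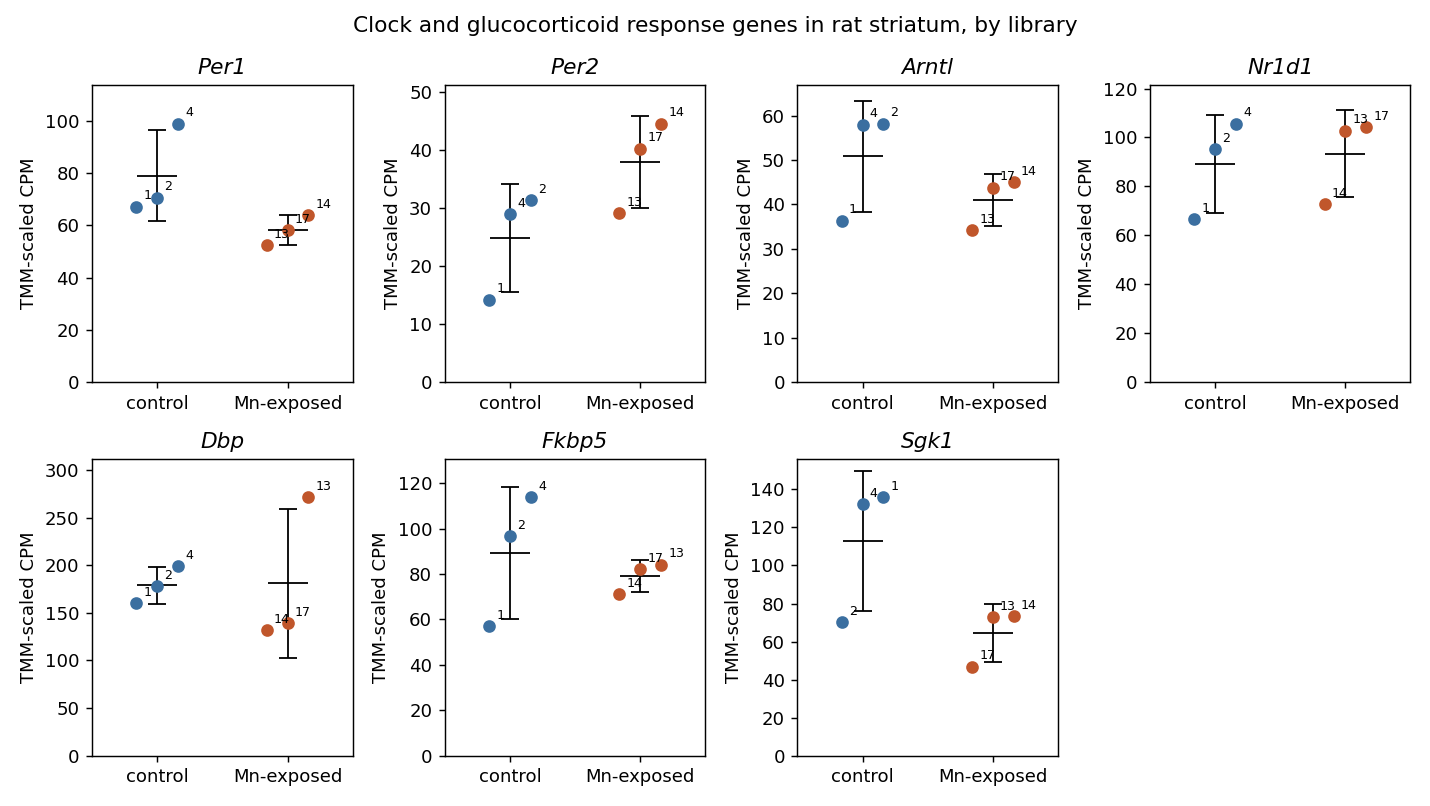
TMM-scaled CPM of the 7 genes (vertical axes, each from 0) in control (blue) and Mn-exposed (orange) libraries; points are libraries with their label numbers, and the dash and bars are the mean and SD of 3. Per1 is the only one of the 7 with groups that do not overlap, and control 1 is the lowest library for Per2, Nr1d1 and Fkbp5 and the highest for Sgk1.

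Per1 and Per2 encode the repressors of the loop. Per1 (ENSRNOG00000007387, plus strand of chromosome 10, 55687050 to 55695994 on Rnor_6.0) stood at 67.3, 70.7 and 99.1 CPM in control 1, 2 and 4 and at 52.4, 64.1 and 58.3 CPM in Mn-exposed 13, 14 and 17. Every Mn-exposed library was below every control, as happened in 5.48% of all genes in this direction. The means were 79.0 ± 17.5 and 58.3 ± 5.83 CPM (SD, n = 3 each), a log2 fold change of -0.44 (SE 0.17) with a 95% interval of -0.85 to -0.03. The unadjusted edgeR p was 0.0394 and the adjusted p 0.663, and DESeq2 gave an adjusted p of 0.464. A two-sided exact permutation of the labels gave p = 0.1, below which 3 libraries against 3 cannot go. Control 4 stood well above the others, and without it the log2 fold change was -0.24, with an unadjusted edgeR p of 0.138. The unadjusted edgeR p was also above 0.05 when Mn-exposed 13 (0.107), 14 (0.0511) or 17 (0.0878) was left out and with scaling by library size alone (0.103). It was 0.0189 without control 1 and 0.0426 without control 2.

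Per2 (ENSRNOG00000020254, minus strand of chromosome 9, 98555169 to 98597359) had the opposite sign. Its levels were 14.2, 31.3 and 28.9 CPM in control 1, 2 and 4 and 29.0, 44.5 and 40.2 CPM in Mn-exposed 13, 14 and 17. The groups overlapped in one comparison only, Mn-exposed 13 against control 2, so that the Mn-exposed library was higher in 8 of the 9 possible pairs. The means were 24.8 ± 9.27 and 37.9 ± 7.98 CPM (SD, n = 3 each), a log2 fold change of 0.61 (SE 0.31, 95% interval -0.11 to 1.33). The unadjusted edgeR p was 0.087 and the adjusted p 0.672. Control 1 was far below all other libraries, and the log2 fold change without it was 0.33. With the labels' ID numbers as a block the unadjusted edgeR p of Per2 was 0.00503 and the adjusted p 0.262. In that fit the count of all genes at an unadjusted p under 0.05 was 2115 in place of 1139. The pairing behind the block was inferred from these same counts, and no label states it.

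Because Per1 and Per2 lay in opposite directions, their ratio within a library, which no scaling of libraries can change, parted the groups more than either gene did. This ratio was singled out after its values were seen. Per1 exceeded Per2 by 4.74, 2.26 and 3.42 times in control 1, 2 and 4, and by 1.81, 1.44 and 1.45 times in Mn-exposed 13, 14 and 17. Of the 21 ratios between 2 members, 3 had groups that did not overlap, where 12.1% of single genes tested had such groups. The share over ratios of other genes was not computed. Per2 was a partner in each of the 3, with Per1, with Arntl and with Fkbp5, so they are not independent. The ratio of Per2 to Arntl was 0.390, 0.538 and 0.499 in control 1, 2 and 4, while in Mn-exposed 13, 14 and 17 it reached 0.849, 0.989 and 0.918. That of Per2 to Fkbp5 was 0.249, 0.323 and 0.254 in the controls and 0.345, 0.624 and 0.489 in the Mn-exposed libraries, in the same order.

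**Figure D2:**
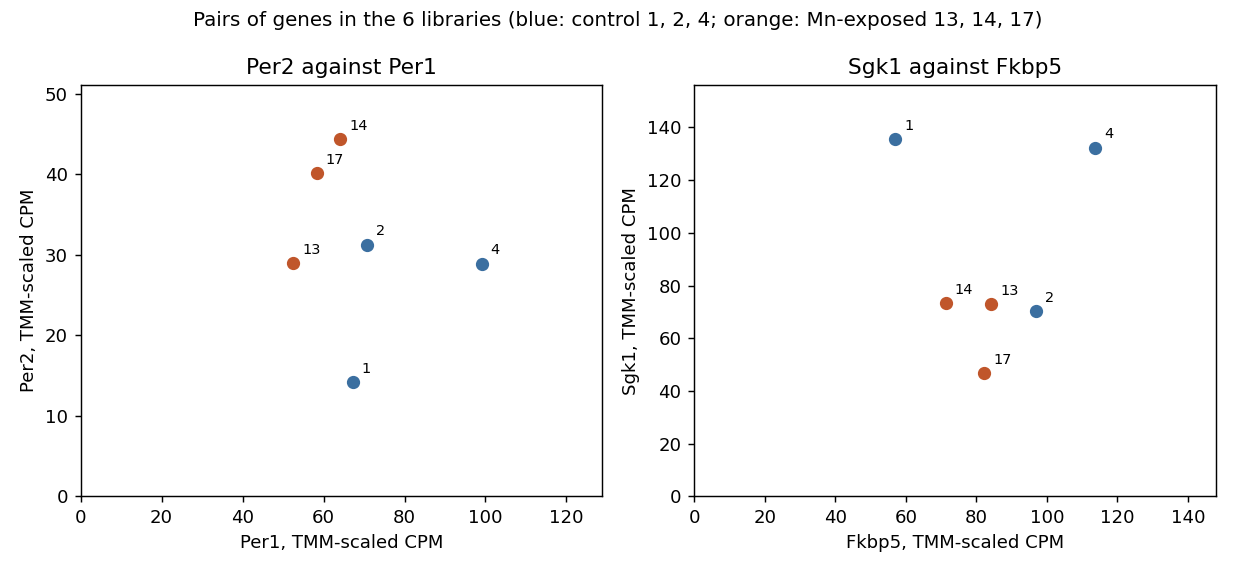
Per2 against Per1 (left) and Sgk1 against Fkbp5 (right), in TMM-scaled CPM, for the 3 control (blue) and 3 Mn-exposed (orange) libraries, numbered as in their labels. On the left the Mn-exposed libraries have more Per2 for their Per1; on the right control 1 combines the lowest Fkbp5 with the highest Sgk1.

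Arntl, the activator of the loop (ENSRNOG00000014448, plus strand of chromosome 1, 178039063 to 178137465), stood at 36.3, 58.2 and 58.0 CPM in control 1, 2 and 4 and at 34.2, 45.0 and 43.8 CPM in Mn-exposed 13, 14 and 17. Control 1 and Mn-exposed 13 formed a low pair and the groups overlapped. The means were 50.8 ± 12.6 and 41.0 ± 5.91 CPM (SD, n = 3 each), a log2 fold change of -0.31 (SE 0.21), with edgeR p-values of 0.18 unadjusted and 0.713 adjusted. With the ID numbers as a block the unadjusted edgeR p was 0.0365 and the adjusted p 0.335. Without control 1 the log2 fold change was -0.50, with edgeR p-values of 0.0123 unadjusted and 0.413 adjusted. Leaving out any other single library gave an unadjusted edgeR p from 0.187 (Mn-exposed 14) to 0.426 (control 2).

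Nr1d1 encodes the nuclear receptor that represses Arntl (ENSRNOG00000009329, minus strand of chromosome 10, 86683875 to 86690815). It stood at 66.6, 95.2 and 106 CPM in control 1, 2 and 4 and at 103, 72.7 and 104 CPM in Mn-exposed 13, 14 and 17. The ranges coincided almost fully, with 1 low library in each group. The log2 fold change was 0.06 (SE 0.21, 95% interval -0.44 to 0.57; edgeR adjusted p = 0.938). Nr1d1 shares 263 exonic bases with 1 gene on the opposite strand. The strand setting of the counts is not given, so how reads there were assigned is unknown. Its sign turned when control 1 (-0.11), Mn-exposed 13 (-0.02) or Mn-exposed 17 (-0.02) was left out.

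Dbp, a transcription factor that carries the clock's rhythm to output genes (ENSRNOG00000021027, plus strand of chromosome 1, 101687855 to 101692846), had means of 179 ± 19.4 CPM in controls and 181 ± 78.3 CPM in Mn-exposed libraries (SD, n = 3 each). Behind the like means were levels of 160.0, 178 and 199 CPM in control 1, 2 and 4 and of 271, 132 and 139 CPM in Mn-exposed 13, 14 and 17. Mn-exposed 13 was thus above all controls and Mn-exposed 14 and 17 were below all of them. The log2 fold change was 0.01 (SE 0.29, edgeR adjusted p = 0.989). Without Mn-exposed 13 it was -0.41, with edgeR p-values of 0.0361 unadjusted and 0.299 adjusted.

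Fkbp5 encodes a co-chaperone that restrains the glucocorticoid receptor and is one of its best-known induced targets (ENSRNOG00000022523, minus strand of chromosome 20, 7976713 to 8019020). It stood at 57.0, 96.8 and 114 CPM in control 1, 2 and 4 and at 84.1, 71.3 and 82.2 CPM in Mn-exposed 13, 14 and 17. The Mn-exposed libraries lay inside the span of the controls. The means were 89.1 ± 29.1 and 79.2 ± 6.93 CPM (SD, n = 3 each), a log2 fold change of -0.17 (SE 0.24, 95% interval -0.75 to 0.40; edgeR adjusted p = 0.847). Without control 4 the log2 fold change was 0.04, so its sign rested on that library. It stayed negative without control 2 (-0.11) and without control 1 (-0.41, with edgeR p-values of 0.0194 unadjusted and 0.468 adjusted).

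Sgk1 encodes a kinase induced by glucocorticoids that acts on ion channels and transporters (ENSRNOG00000011815, minus strand of chromosome 1, 24185435 to 24302298). It had the largest estimated difference of the 7. It stood at 136, 70.3 and 132 CPM in control 1, 2 and 4 and at 72.9, 73.4 and 46.8 CPM in Mn-exposed 13, 14 and 17. Control 1 and 4 were above all other libraries, while control 2 was below 2 of the 3 Mn-exposed ones. The means were 113 ± 36.9 and 64.4 ± 15.2 CPM (SD, n = 3 each), a log2 fold change of -0.81 (SE 0.29, 95% interval -1.50 to -0.12). The unadjusted edgeR p was 0.0268 and the adjusted p 0.663, DESeq2 gave an adjusted p of 0.287, and the two-sided exact permutation p was 0.3. With the block the unadjusted edgeR p was 0.052. Leaving out control 1 gave an unadjusted edgeR p of 0.079, leaving out control 4 gave 0.0821 and leaving out Mn-exposed 17 gave 0.0842. That p was 0.0321 when Mn-exposed 13 was omitted and 0.0392 when Mn-exposed 14 was. Without control 2 the log2 fold change was -1.06 with an unadjusted edgeR p of 0.00297.

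**Figure D3:**
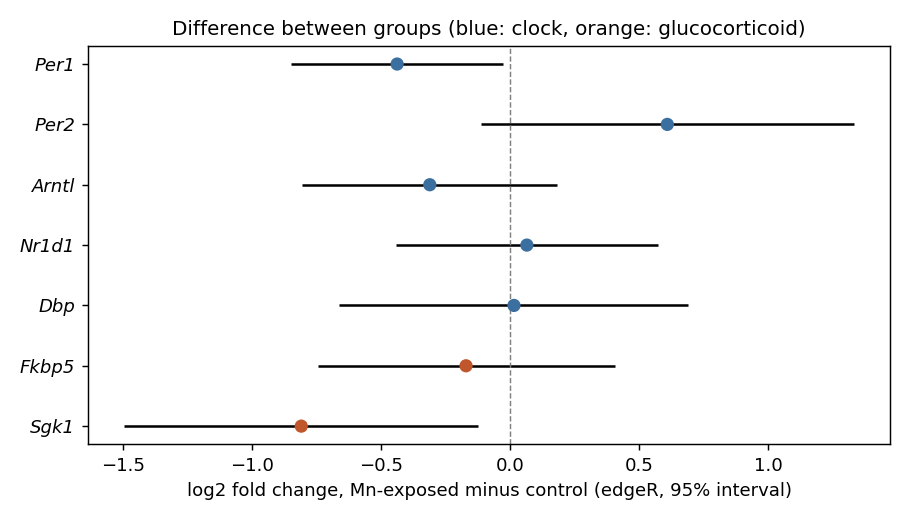
Estimated log2 fold change of each gene, Mn-exposed minus control (horizontal axis), with the 95% interval from edgeR; blue points are clock genes and orange points glucocorticoid response genes. The intervals of Per1 (-0.85 to -0.03) and Sgk1 (-1.50 to -0.12) lie below 0 before adjustment over all genes, and those of the other 5 include it.

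Per kilobase of exon, so that genes can be compared, the mean level over the 6 libraries was highest for Dbp, at 106 CPM per kb (SD 30.0). Nr1d1 followed at 35.8 (SD 6.73), then Fkbp5 at 24.8 (SD 5.82), Sgk1 at 24.2 (SD 10.01), Per1 at 17.0 (SD 4.01), Arntl at 15.4 (SD 3.47) and Per2 at 5.42 (SD 1.82). Dbp was above Nr1d1 in 6 of 6 libraries, Nr1d1 above Fkbp5 in 6 of 6 (with ranges that overlapped) and Arntl above Per2 in 6 of 6. The order of Fkbp5 and Sgk1 held in 4 of 6 libraries, that of Per1 and Arntl in 4 of 6 and that of Sgk1 and Per1 in 5 of 6. Differences in level between members were not tested.

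All 7 members varied more between libraries of a group than the median gene of similar level. Among the 1001 genes nearest in mean log2 CPM, the gene itself included, the pooled SD within groups of Per2 stood at percentile 93.3 and that of Sgk1 at 91.1. Dbp was at percentile 86.5, Fkbp5 at 86.1, Arntl at 81.3, Nr1d1 at 79.3 and Per1 at 66.1. From the lowest to the highest library, Per2 spanned 3.12-fold, Sgk1 2.90-fold and Dbp 2.05-fold, and Nr1d1 had the smallest span, at 1.58-fold. These percentiles are a description and carry no test.

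How the members varied together over the 6 libraries is given next. Among the 6 pairs of Per1, Per2, Nr1d1 and Dbp, which all carry E-box control in a running clock, Pearson correlations of log2 CPM over the 6 libraries were positive in 3 and negative in 3, from -0.25 (Per2 and Dbp) to 0.50 (Nr1d1 and Dbp). Arntl, which peaks opposite to Nr1d1 and Dbp in a running clock, correlated positively with 3 of these 4, from -0.20 (Dbp) to 0.75 (Per1). The 2 glucocorticoid genes had r = -0.08 with each other (two-sided exact permutation p = 0.897). With deviations from the group means, the highest values of the 21 pairs were r = 0.99 for Arntl and Per2 and r = 0.89 for Nr1d1 and Fkbp5. They were picked from the 21 as descriptions over 6 libraries. Without that centring Arntl and Per2 had r = 0.36 (two-sided exact permutation p = 0.535), and r was -0.14 without control 1.

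Over the 21 pairs of members, 0 passed an adjusted p of 0.05 (smallest Benjamini-Hochberg value 0.515), and 1 had an unadjusted exact p under 0.05, where the smallest possible is 0.00278. That pair was Nr1d1 and Fkbp5, with Pearson r = 0.85 (two-sided exact permutation p = 0.0278, adjusted over 21 pairs 0.515) and Spearman rho = 0.77 (exact p = 0.103, adjusted 0.919). Without control 1 and Mn-exposed 14, the libraries farthest from the median of Nr1d1, r was 0.04, so the relation rests on those libraries. Of the 21 pairs, 12 changed the sign of r without at least 1 of the libraries. Per1 and Arntl correlated at r = 0.75 (exact permutation p = 0.0667, 0.515 after adjustment). Their rho was 0.77 (exact p = 0.103, 0.919 after adjustment), and r was 0.36 without control 4 and Mn-exposed 13. Per2 and Sgk1 correlated at r = -0.73 (exact permutation p = 0.0736, 0.515 after adjustment). Their rho was -0.66 (exact p = 0.175, 0.919 after adjustment), and r was -0.81 without control 1 and Mn-exposed 14.

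As a summary of the clock order, the mean deviation of Per1, Per2, Nr1d1 and Dbp minus that of Arntl was taken in each library, in log2 units. It was -0.10, -0.30 and -0.13 in control 1, 2 and 4, while in Mn-exposed 13, 14 and 17 it was 0.51, -0.05 and 0.07. The Mn-exposed libraries were above the controls, with Mn-exposed 14 only just so. The groups overlapped in Per2, Arntl, Nr1d1 and Dbp each taken alone, and in Per1 the Mn-exposed libraries were below the controls. In Mn-exposed 13, the highest, Arntl (-0.39) was low and Dbp (0.64) high, while Per1 (-0.36) was low as well. The mean deviation of Fkbp5 and Sgk1 was 0.09, 0.002 and 0.57 in control 1, 2 and 4, while in Mn-exposed 13, 14 and 17 it was -0.07, -0.19 and -0.41. The Mn-exposed libraries were below the controls there, though the groups overlapped in Fkbp5 alone and in Sgk1 alone. Control 1 reached its mean through a low Fkbp5 (-0.53) and a high Sgk1 (0.72). Since the 7 genes were chosen with earlier results known and the scores sum over them, no p is given for either. Groups did not overlap in 12.1% of single genes tested, and how often they part in scores of other genes was not computed.

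**Figure D4:**
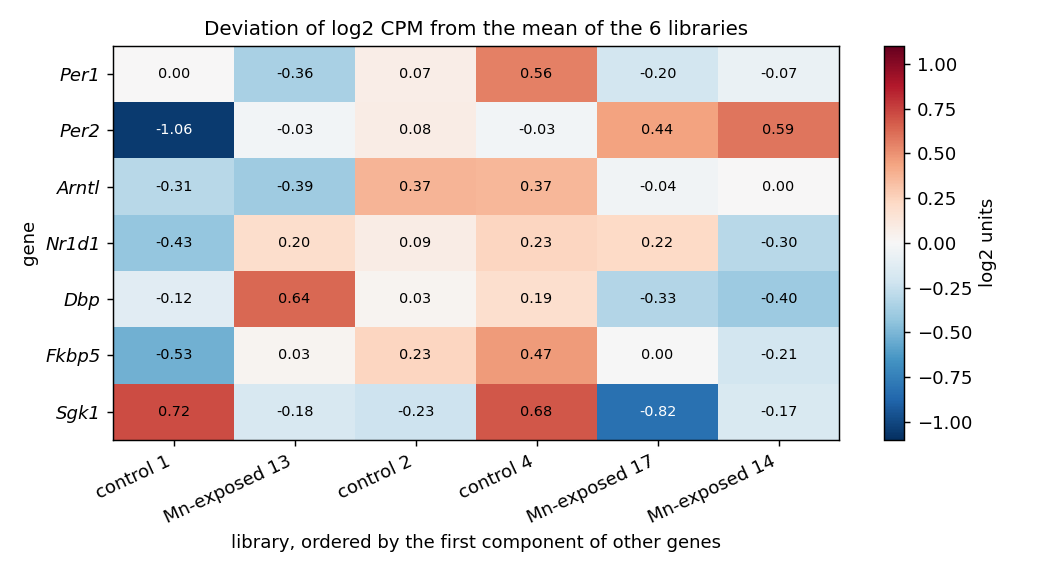
Deviation of each gene's log2 CPM (rows) from its mean over the 6 libraries, with libraries (columns) ordered by the first component of other genes; red is above and blue below the mean. Per2 goes from -1.06 in control 1 to 0.59 in Mn-exposed 14 and Dbp from 0.64 in Mn-exposed 13 to -0.40 in Mn-exposed 14.

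Control 4 was the highest library for 3 members (Per1, Nr1d1 and Fkbp5) and the lowest for none of the 7. Control 2 and 4 were each above the mean of the 6 libraries in 6 of 7 members, Mn-exposed 13 in 3, and control 1, Mn-exposed 14 and Mn-exposed 17 in 2 each. Control 1 was the lowest for 3 (Per2, Nr1d1 and Fkbp5) but the highest for Sgk1. Mn-exposed 13 was the lowest for Per1 and Arntl and the highest for Dbp. Mn-exposed 14 was the highest for Per2 and the lowest for Dbp. Mn-exposed 17 was the lowest for Sgk1.

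A principal component analysis of the 1000 genes that varied most, taken without the 7 members and without mitochondrial DNA features, had a first component that held 44.7% of the variance and put control 1 (-24.0) and Mn-exposed 13 (-22.6) at one end and Mn-exposed 17 (20.4) and 14 (34.0) at the other, with control 2 (-6.30) and 4 (-1.51) between. Of the 7 members, Per2 followed it most closely, with Pearson r = 0.81 (two-sided exact permutation p = 0.0264, adjusted over 7 relations 0.185) and Spearman rho = 0.83 (exact p = 0.0583, 0.408 after adjustment). With Mn-exposed 14 and 17, the libraries farthest from the median of the component, left out, r was 0.63. Dbp ran the other way, at r = -0.73 (exact permutation p = 0.0986, 0.345 after adjustment). Its rho was -0.60 (exact p = 0.242, 0.789 after adjustment), and r was -0.17 without the same 2 libraries. The other coefficients were 0.33 for Arntl, 0.07 for Fkbp5, 0.01 for Per1, -0.03 for Nr1d1 and -0.51 for Sgk1. Without Mn-exposed 14 and 17 they were 0.97, 0.87, 0.81, 0.59 and 0.04 in the same order, so these values rest on those 2 libraries. None of the 7 passed after adjustment, and with all genes in the component Per2 did (r = 0.90, exact permutation adjusted p = 0.0389). In deviations from the group means, r with the component of 1000 genes was -0.79 for Dbp, 0.77 for Arntl and 0.74 for Per2. It was 0.64 for Per1, -0.25 for Sgk1, 0.19 for Fkbp5 and -0.11 for Nr1d1, so Per2 was not the closest there. What this component stands for was not tested.

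For each member the gene of most similar pattern was taken by Pearson r of log2 CPM over the 6 libraries. For Per2 it was ENSRNOG00000047339 (minus strand of chromosome X, 69213645 to 69218556, r = 0.997), and for Nr1d1 it was ENSRNOG00000000522 (minus strand of chromosome 20, 6419033 to 6500523, r = 0.995). For Fkbp5 it was ENSRNOG00000020703 (minus strand of chromosome 1, 87260835 to 87468288, r = 0.995), and for Sgk1 ENSRNOG00000004094 (plus strand of chromosome 19, 24800072 to 24803373, r = 0.993). Over all 15252 genes tested the median of this best r was 0.995 and the lowest 0.946. A match as close as those named is thus what a typical gene finds among so many with 6 libraries. The best r was lower for Arntl (0.991), Dbp (0.981) and Per1 (0.961).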

How the data were processed

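Striatal RNA of 3 control and 3 Mn-exposed rat libraries was analysed from whole-number read counts per Ensembl gene, which the authors deposited without normalisation. The build was Rnor_6.0 (rn6), and the tools listed in the submitters' processing notes are STAR 2.5.2b, bcl2fastq 2.17 and an unversioned DESeq2. Per the labels' protocols, poly(A) RNA went into a NEBNext Ultra RNA kit. No source used here gives the counting tool, annotation release or strand setting. The series table and the sample files differed in 0 cells.

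The 7 members and all lists were chosen with earlier results of these data known. Counts were filtered with filterByExpr (15252 of 32552 genes), given TMM factors and fitted by edgeR's robust quasi-likelihood method without a block (edgeR 4.0.16, R 4.3.3), with Benjamini-Hochberg adjustment over all genes and a threshold of 0.05. DESeq2 1.42.0 and limma-voom (limma 3.58.1) were alternatives, as were other scalings and filters, the ID number as a block, no mtDNA features and libraries left out. Log2 CPM used a prior count of 2. Permutation tests enumerated all 720 orders for correlations. The edgeR, DESeq2 and limma-voom fits were tested on simulated counts.

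All members are named, and other genes by the highest r with a member, at most 2 in each direction. A list of other pathway genes and one of cell type markers, set by symbol, could not be matched, since 0 IDs appear in the RefSeq table. Ratios between members, the percentiles of spread and the median best r were added after values were seen.

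The ID numbers run from 1 to 3 in both groups. Deviations from group means correlated at 0.417 (control 1 and Mn-exposed 13), 0.109 (control 2 and Mn-exposed 14) and 0.227 (control 4 and Mn-exposed 17). As each was over 0.1, the numbers were used as pairs in an alternative fit with a block. The main fit and its p-values are unpaired. Of the pairs with unequal numbers, control 2 and Mn-exposed 17 (0.274) and control 4 and Mn-exposed 14 (0.145) exceeded 0.109, and Mn-exposed 14 and 17 did not correlate best with their own number. This pairing comes from the same data it is fitted to, and no label states a shared litter, day or batch.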

Additional observations from a re-analysis of the deposited data

How the results depend on the processing

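None of the 7 members passed an adjusted p of 0.05 under any of the 15 alternatives. Of 105 re-estimated fold changes 94 kept their sign, and the other 11 were of Dbp, Nr1d1 and Fkbp5. Dbp (0.01) was -0.000459 with DESeq2, -0.047 with limma-voom, -0.067 with the replicate block, -0.49 in a fit lacking both control 1 and Mn-exposed 13, and -0.41 (without Mn-exposed 13) to 0.20 (without Mn-exposed 14) when 1 library was left out. Nr1d1 (0.06) was -0.20 without both, and -0.11 to 0.22 without 1 library. Fkbp5 (-0.17) ran from -0.41 without control 1 to 0.042 without control 4. Members at an unadjusted p under 0.05 (2) numbered 1 with library size alone and 3 with the replicate block. They numbered 5 without both (all but Nr1d1 and Sgk1), where the count over all genes rose from 1139 to 2692. Without 1 library the members numbered 0 to 3, 0 being reached without control 4 and without Mn-exposed 17. Their median log2 fold change (-0.17) was -0.47 without both, and -0.41 (without control 1) to 0.04 (without control 4) without 1 library. Among all genes, calls (0) came to 92 with DESeq2 and 58 without both. Unadjusted calls (1139) came to 2115 with the replicate block, 2692 without both and 576 to 2351 without 1 library. Control 1 (-24.0) and Mn-exposed 13 (-22.6) lay at one end of the first component of these same data. The count of 5 members without both is therefore a description and carries no test. Library size alone took the median over all genes from 0.02 to 0.12 and changed no member's sign. The mean of Fkbp5 and Sgk1 moved by less than the spread within groups in 18 of 18 values under other scalings, which cancel out of the clock contrast by construction. With library size alone the r of Arntl and Sgk1 was -0.143 (0.05 with TMM) and that of Nr1d1 with the component 0.103. With all genes in the component, 1 member passed (Per2), and r was -0.034 for Per1 and 0.153 for Nr1d1. The causes were not tested. The biological coefficient of variation within groups, the square root of edgeR's dispersion common to all genes tested, was 22.8%. No member had under 299 counts in a library.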
